A study of Mus musculus with 6 samples.

Results

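The genes described here release, cut, recycle or make sialic acid and the aminosugars around it. They were Neu1, Slc17a5, Npl, Renbp, Nagk, Amdhd2, Gnpda1, Gne, Nans and Cmas, and each was taken as the row of the deposited table with that gene name, 10 of 23390 genes. The libraries hold RNA of small-intestinal epithelium from C57BL/6 mice, as viable cells that a sorter took for carrying EpCAM, an epithelial surface protein, and lacking CD45, a leukocyte one. The 3 libraries of the mutant came from Vil.Cre Maf.flox mice, in which the villin promoter drives Cre in the intestinal epithelium and removes floxed Maf, the gene of the transcription factor c-Maf. The 3 control libraries came from Maf.flox mice, labelled with the floxed allele alone, so effects of Cre and of Maf loss cannot be told apart. Neither age nor sex was labelled, and the labels do not say that each library was a separate mouse, so the spread between libraries may be partly technical.

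Sialic acids cap the outer ends of the glycans on mucins, membrane proteins and gangliosides. When these are broken down in lysosomes, a sialidase releases free sialic acid, a carrier lets it out to the cytosol, and Npl splits it into N-acetylmannosamine and pyruvate. The aminosugar is then turned step by step into fructose phosphate or is used again, while a separate route builds sialic acid anew and activates it for sialyltransferases. In the small intestine, sialylated glycans coat the brush border and the mucus and are also taken in with milk.

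The genes were selected on their known roles and with the measured genotype contrast of these same libraries in view. The genotype differences given for them are therefore a description and are no independent evidence. In bulk RNA, fewer cells of a type and less RNA per cell cannot be told apart.

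The letters around the start of transcription are shown for 3 of the genes, because Npl and Neu1 had the lowest log2 fold changes of the set and Gne differed least between the genotypes. Each window holds 250 bases before and 50 bases after a start, taken from RefSeq (GRCm38.p6), which matched 8 of the 10 genes. Capitals mark the motifs searched on both strands, TGCTGAC, a core of the site that Maf proteins recognise, and CACGTG, the E-box bound by basic helix-loop-helix factors.
Npl (chr1:153549665-153549964, minus strand): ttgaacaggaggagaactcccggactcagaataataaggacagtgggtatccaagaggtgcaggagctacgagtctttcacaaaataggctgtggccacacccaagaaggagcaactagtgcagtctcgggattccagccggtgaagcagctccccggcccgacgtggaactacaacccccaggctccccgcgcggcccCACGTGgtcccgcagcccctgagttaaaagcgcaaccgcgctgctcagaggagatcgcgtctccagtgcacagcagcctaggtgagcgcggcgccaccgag
Neu1 (chr17:34931003-34931302, plus strand): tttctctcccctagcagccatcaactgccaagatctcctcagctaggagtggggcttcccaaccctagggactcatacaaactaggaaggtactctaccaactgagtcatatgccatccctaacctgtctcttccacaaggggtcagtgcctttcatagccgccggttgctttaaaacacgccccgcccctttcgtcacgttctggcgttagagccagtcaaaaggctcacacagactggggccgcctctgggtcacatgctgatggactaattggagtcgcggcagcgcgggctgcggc
Gne, the downstream of its 2 starts (chr4:44072668-44072967, minus strand): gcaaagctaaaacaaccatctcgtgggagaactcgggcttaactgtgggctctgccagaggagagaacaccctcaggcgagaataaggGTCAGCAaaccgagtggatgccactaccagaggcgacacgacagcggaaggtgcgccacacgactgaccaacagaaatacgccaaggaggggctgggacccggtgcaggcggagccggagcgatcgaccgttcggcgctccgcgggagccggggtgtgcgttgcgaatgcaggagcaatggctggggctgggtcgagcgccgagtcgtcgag
The Npl window held CACGTG once, starting 51 bases before the RefSeq start of transcription, and no TGCTGAC. In the deposited table Npl reaches further upstream, to 153550045 on its minus strand, which lies outside this window. Letters around that end were not searched. The Neu1 window held neither motif. Of the 9 windows of these genes, 1 held TGCTGAC, on the reverse strand 162 bases before the downstream start of Gne, and the Amdhd2 window held CACGTG 3 times. Over all 32851 windows of this length in the table, 4.67% held TGCTGAC and 7.15% held CACGTG. These matches are letters in a window and are not shown to be bound.

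The libraries held 17464355 to 24802525 counts. Maf itself had 16, 1 and 1 counts in the Vil.Cre Maf.flox libraries and 9398, 5615 and 3893 in the Maf.flox libraries. Maf.flox replicate 3 stood apart from its group, with a chi-square per gene of 133 and 61.6 against the other controls, which differed by 37.8 from each other. By Xist and Y-linked counts, the Vil.Cre Maf.flox libraries were 2 male and 1 female, and the Maf.flox libraries 1 male and 2 female. Summed epithelial markers, led by Krt8 and Krt19, were at 15716 to 20706 CPM (counts scaled to library size, with TMM factors between libraries) in Vil.Cre Maf.flox and 16514 to 19322 CPM in Maf.flox. The 7 enterocyte markers, led by Anpep and Apoa1, summed to 4615 to 8071 CPM in Vil.Cre Maf.flox and 9570 to 21573 CPM in Maf.flox, with the lowest control value in replicate 3. Of these 7, Anpep was called lower. Goblet markers (Fcgbp, Zg16) were at 15176 to 28876 and 15261 to 34018 CPM in Vil.Cre Maf.flox and Maf.flox, tuft markers (Trpm5, Avil) at 13.7 to 15.1 and 16.4 to 65.8 CPM, and Paneth markers (Lyz1, Defa21) at 5472 to 7887 and 3944 to 26051 CPM. No goblet, tuft or Paneth marker was called. Other leukocyte markers (Igha, Jchain) were at 4.36 to 17.7 CPM in Vil.Cre Maf.flox and 4.17 to 5.97 CPM in Maf.flox, and stroma and endothelium markers (Pecam1, Pdgfra) at 0.214 to 0.705 and 0.378 to 0.833 CPM. Macrophage and monocyte markers, led by Cd14 and Itgam, were at 27.4 to 40.3 CPM in Vil.Cre Maf.flox and 20.2 to 20.8 CPM in Maf.flox. Of the 10 markers on that list 9 were in the table and 4 passed the filter on low counts. Of the other leukocyte markers 5 of 10 passed it, and of the 7 stroma and endothelium markers 0 passed it and none was tested. None of the macrophage and leukocyte markers tested was called. No marker in the table, on any of the 8 lists, was at 0 in all 6 libraries.

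Npl, the lyase that cuts sialic acid, fell to 0.330 ± 0.0324 CPM in Vil.Cre Maf.flox, against 8.65 ± 5.12 CPM in Maf.flox (SD, n = 3 each), a fitted level 25.7-fold lower. Neu1, the sialidase before it, and Gnpda1, the last aminosugar step, had fitted levels 0.405 and 0.476 times those in Maf.flox, and neither passed the test over all genes. The synthesis genes of the set, Gne, Nans and Cmas, were at 1.04, 1.38 and 1.23 times the Maf.flox level, also without passing it. Counts were tested for genotype with edgeR's quasi-likelihood test over 13740 genes, and a gene was called at an adjusted p under 0.05. Of the 10 genes, Npl was called lower in Vil.Cre Maf.flox and none was called higher, against 0.357% of all genes tested called lower and 0.189% called higher. The Npl call held in 9 of 14 alternative fits. The same test gave an unadjusted p under 0.05 for 5 of the 10 and for 2248 of all 13740 genes tested. In CPM the libraries of the genotypes did not overlap for 8 of the 10. They were lower in Vil.Cre Maf.flox for Npl, Neu1, Gnpda1 and Renbp, where 10.5% of all genes tested were so separated, and higher for Nagk, Gne, Nans and Cmas, against 10.1%. The median log2 fold change of the 10 genes was -0.07 and that of all genes tested -0.01. Nothing is read from these shares, since the same contrast chose the genes.

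**Figure D1:**
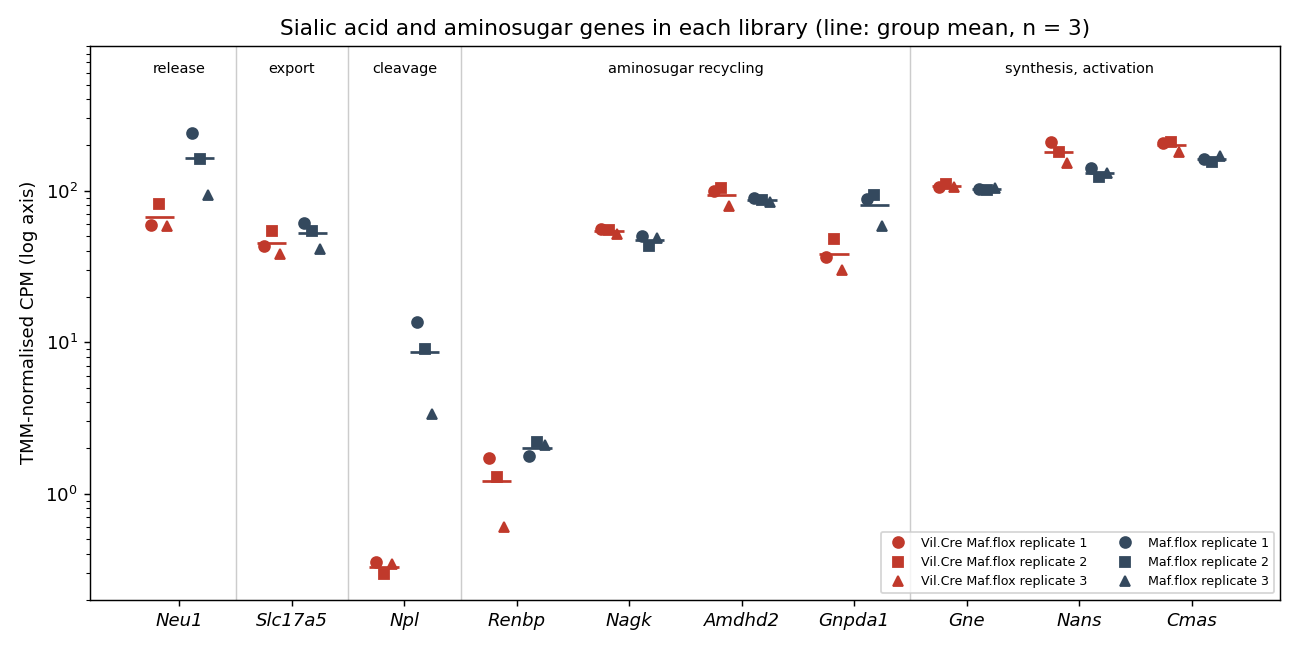
TMM-normalised CPM of each gene in each library on a log axis, with red points for Vil.Cre Maf.flox, dark points for Maf.flox, a marker shape per replicate and a line at each group mean (n = 3). The gap between the groups is widest for Npl, at 0.294 to 0.355 CPM in Vil.Cre Maf.flox and 3.37 to 13.6 CPM in Maf.flox, while Gne lies between 101 and 110.2 CPM in all 6 libraries.

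Npl, N-acetylneuraminate pyruvate lyase, cuts free sialic acid in the cytosol (ENSMUSG00000042684, GRCm38 chromosome 1, 153503015 to 153550045, minus strand). It had 7, 5 and 8 counts in Vil.Cre Maf.flox replicates 1, 2 and 3 and 323, 173 and 71 counts in Maf.flox replicates 1, 2 and 3. On the CPM scale these were 0.355, 0.294 and 0.342 CPM in Vil.Cre Maf.flox and 13.6, 9.01 and 3.37 CPM in Maf.flox. Every Vil.Cre Maf.flox library lay below every control, the mutant libraries were close to each other, and Maf.flox replicate 3 was the lowest control.

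Summed over libraries, the mutant level was 3.76% of the control level (exact 95% interval 2.28 to 5.86%, for counting error alone). The fitted log2 fold change was -4.68 (SE 0.582, 95% interval -6.03 to -3.33), and 6 of the 13740 genes tested had a lower one. Npl passed the filter on low counts, 0.494 CPM here, in the 3 controls and in none of the mutant libraries. Its log2 fold change lay between -5.06, without Maf.flox replicate 3, and -4.18, without Maf.flox replicate 1, when each library was left out in turn. The call was lost when a mutant library was left out (-4.72, -4.60 and -4.71 without replicates 1, 2 and 3), when Maf.flox replicate 2 was left out (-4.64), and with limma-voom (-4.41). The summed enterocyte and tuft markers were also lower in every mutant library than in every control, and the summed macrophage and monocyte markers were higher. Such sums rest mostly on their most abundant members. Anpep did not overlap between the groups. Apoa1 did, at 1304 to 2720 CPM in Vil.Cre Maf.flox and 2097 to 7772 CPM in Maf.flox. Of the tuft markers, Trpm5 overlapped, at 5.18 to 6.49 CPM in Vil.Cre Maf.flox and 5.41 to 23.3 CPM in Maf.flox, and Avil did not. Most of the macrophage and monocyte sum was Cd14 and Itgam, which averaged 16.4 and 12.6 CPM in Vil.Cre Maf.flox. The part of these cell types in the Npl value was not tested.

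Neu1 encodes the lysosomal sialidase that releases sialic acid from glycans (ENSMUSG00000007038, chromosome 17, 34931253 to 34935953, plus strand). It had 59.6, 81.2 and 58.8 CPM in Vil.Cre Maf.flox replicates 1, 2 and 3, against 238, 162 and 92.9 CPM in Maf.flox replicates 1, 2 and 3. All mutant libraries lay below all controls, but the controls themselves spread widely. Neu1 averaged 66.5 ± 12.7 CPM in Vil.Cre Maf.flox and 164 ± 72.8 CPM in Maf.flox (SD, n = 3 each). Its log2 fold change of -1.31 (SE 0.331, 95% interval -2.09 to -0.52) was not called over all genes. It was called without Maf.flox replicate 3, at -1.59, where 4.11% of all genes tested were called lower. It was also called with DESeq2, at -1.30, where 3.48% were called lower.

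Slc17a5 (chromosome 9, 78536488 to 78588041, minus strand) encodes sialin, the carrier that lets free sialic acid out of the lysosome. Its CPM were 43.4, 54.5 and 37.9 in Vil.Cre Maf.flox and 61.4, 54.3 and 41.2 in Maf.flox, with a log2 fold change of -0.21 (SE 0.177, 95% interval -0.62 to 0.19). The groups overlapped, and the difference was within the spread between libraries.

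Neu1, Slc17a5, Npl and Amdhd2 were highest in Maf.flox replicate 1 and lowest in Maf.flox replicate 3, an order shown by 23.8% of all genes tested. Maf had 395, 292 and 185 CPM in the same 3 libraries, and the enterocyte markers summed to 21573, 20207 and 9570 CPM. The coefficient of variation over the controls was 59.1% for Npl and 44.3% for Neu1, against 0.981% for Gne.

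The aminosugar left by Npl passes through Renbp, Nagk, Amdhd2 and Gnpda1. Gnpda1, the deaminase that turns glucosamine phosphate into fructose phosphate, had 36.3, 48.3 and 30.1 CPM in Vil.Cre Maf.flox and 88.6, 93.9 and 58.3 CPM in Maf.flox. Its groups did not overlap, and Maf.flox replicate 3 was again the lowest control. The averages were 38.2 ± 9.24 CPM in Vil.Cre Maf.flox and 80.3 ± 19.2 CPM in Maf.flox (SD, n = 3 each). The log2 fold change was -1.07 (SE 0.226, 95% interval -1.60 to -0.55), not called over all genes. Gnpda1 was called without Maf.flox replicate 3, at -1.26, with DESeq2, at -1.07, and with a replicate block, at -1.07. In these fits 4.11%, 3.48% and 2.24% of all genes tested were called lower, against 0.357% in the fit of all libraries. The block treats libraries of the same replicate number as matched, which the labels do not state. Gnpda1 and its close paralog Gnpda2 catalyse the same step. Gnpda2 averaged 5.25 CPM in Vil.Cre Maf.flox and 6.99 CPM in Maf.flox, and its groups did not overlap either. The log2 fold change of Gnpda2 was -0.41 (SE 0.187), not called.

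Renbp (chromosome X, 73922121 to 73930850, minus strand), the epimerase that interconverts N-acetylmannosamine and N-acetylglucosamine, was scarce, with 34, 22 and 14 counts in Vil.Cre Maf.flox and 42, 42 and 44 counts in Maf.flox. Its CPM were 1.72, 1.29 and 0.599 in Vil.Cre Maf.flox and 1.77, 2.19 and 2.09 in Maf.flox. The groups only just failed to overlap, at 1.72 and 1.77 CPM. The lowest library was the female of the mutant group, while among the controls the male, replicate 1, was the lowest. The log2 fold change of -0.75 (SE 0.386, 95% interval -1.63 to 0.13) was not called, and it was -0.41 without Vil.Cre Maf.flox replicate 3 and -1.11 without Vil.Cre Maf.flox replicate 1. Renbp lies on chromosome X, and the sexes were not balanced between the groups. With sex as a term its log2 fold change was -0.95.

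Nagk (chromosome 6, 83794982 to 83804018, plus strand), the kinase that phosphorylates N-acetylglucosamine, had 56.0, 54.8 and 51.7 CPM in Vil.Cre Maf.flox and 50.3, 43.1 and 48.7 CPM in Maf.flox. Its log2 fold change was 0.19 (SE 0.0971, 95% interval -0.03 to 0.41). Amdhd2 (chromosome 17, 24155833 to 24163766, minus strand), which removes the acetyl group from phosphorylated N-acetylglucosamine, had 99.1, 104 and 79.4 CPM in Vil.Cre Maf.flox and 89.9, 86.6 and 84.2 CPM in Maf.flox, a log2 fold change of 0.12 (SE 0.118, 95% interval -0.15 to 0.38). Neither was called, the groups of Amdhd2 overlapped, and the intervals reached no lower than -0.03 for Nagk and -0.15 for Amdhd2.

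**Figure D2:**
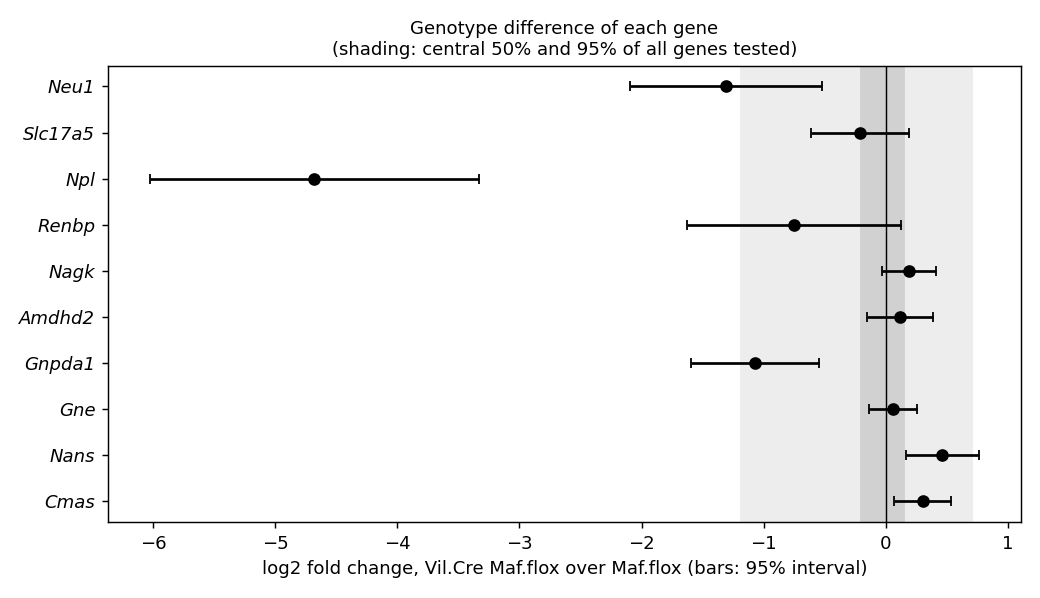
Log2 fold change of each gene, Vil.Cre Maf.flox over Maf.flox, with its 95% interval from edgeR's quasi-likelihood fit, over the central 50% and 95% of all genes tested (-0.20 to 0.15 and -1.19 to 0.71). Npl at -4.68 and Neu1 at -1.31 lie below the wider band, and Nans at 0.46 has the highest value of the 10.

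Gne (chromosome 4, 44034075 to 44084177, minus strand), which makes and phosphorylates N-acetylmannosamine, had 105, 110.2 and 105 CPM in Vil.Cre Maf.flox and 102, 101 and 103 CPM in Maf.flox. This is a log2 fold change of 0.06 (SE 0.0863, 95% interval -0.13 to 0.26), the value nearest to 0 of the 10 genes. Nans (chromosome 4, 46489248 to 46503632, plus strand), the sialic acid synthase, had 209, 179 and 152 CPM in Vil.Cre Maf.flox and 140, 122 and 130 CPM in Maf.flox. All mutant libraries lay above all controls, with a log2 fold change of 0.46 (SE 0.132, 95% interval 0.16 to 0.76) that was not called over all genes. With DESeq2 it was 0.47 and called, where 2.06% of all genes tested were called higher. Trim14 lies on the opposite strand across 9852 bases of Nans. Whether counting used strand is not given in the sources used here, and counts of Nans can include Trim14 reads. Trim14 had 45.0, 50.1 and 38.3 CPM in Vil.Cre Maf.flox and 39.4, 33.9 and 36.6 CPM in Maf.flox.

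Cmas (chromosome 6, 142756686 to 142775714, plus strand), which activates sialic acid to the nucleotide sugar used by sialyltransferases, had 207, 209.6 and 180.2 CPM in Vil.Cre Maf.flox and 162, 154 and 168 CPM in Maf.flox. Here too all mutant libraries lay above all controls, and the log2 fold change was 0.30 (SE 0.103, 95% interval 0.07 to 0.54), not called.

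Ratios of counts within a library do not depend on how libraries are scaled. Per 1000 counts of Cmas there were 1.71, 1.40 and 1.90 counts of Npl in Vil.Cre Maf.flox and 83.8, 58.4 and 20.01 in Maf.flox. For Neu1 there were 288, 387 and 326 per 1000 in Vil.Cre Maf.flox and 1471, 1048 and 552 in Maf.flox. Neu1 thus had fewer counts than Cmas in every mutant library and more in 2 of the 3 controls, replicate 3 being the exception. For Gnpda1 the ratio was 175, 230.3 and 167 in Vil.Cre Maf.flox and 547, 609 and 346 in Maf.flox. These 3 genes kept separate groups on this scale, where the denominator was itself higher in the mutant CPM. Renbp was also lower without overlap, at 8.32, 6.16 and 3.32 in Vil.Cre Maf.flox and 10.9, 14.2 and 12.4 in Maf.flox. Amdhd2, which overlapped in CPM, was here lower without overlap, at 440 to 496 in Vil.Cre Maf.flox and 501 to 561 in Maf.flox. Nagk, higher without overlap in CPM, overlapped here, at 262 to 287 in Vil.Cre Maf.flox and 279 to 311 in Maf.flox. Slc17a5 overlapped on both scales. Gne, slightly higher in mutant CPM, was lower per 1000 Cmas counts, at 506, 526 and 585 in Vil.Cre Maf.flox and 631, 657 and 614 in Maf.flox. Nans overlapped, at 1011, 856 and 842 in Vil.Cre Maf.flox and 864, 793 and 771 in Maf.flox.

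Levels of different genes were compared per length, in the deposited FPKM. In Vil.Cre Maf.flox the order of the means was Cmas at 42.3, Nans at 39.4, Amdhd2 at 34.6, Neu1 at 17.9, Gne at 16.8, Gnpda1 at 16.0, Slc17a5 at 12.5, Nagk at 11.6, Renbp at 0.484 and Npl at 0.112 FPKM. In Maf.flox it was Neu1 at 43.9, Cmas at 34.1, Gnpda1 at 33.4, Amdhd2 at 31.7, Nans at 28.4, Gne at 16.0, Slc17a5 at 14.4, Nagk at 10.1, Npl at 2.92 and Renbp at 0.803 FPKM. Neighbours whose library ranges did not overlap were Amdhd2 and Neu1, Nagk and Renbp, and Renbp and Npl in Vil.Cre Maf.flox. In Maf.flox they were Nans and Gne, Slc17a5 and Nagk, Nagk and Npl, and Npl and Renbp. Neu1 stood below Cmas, Nans and Amdhd2 in Vil.Cre Maf.flox and at the top in Maf.flox, with 15.8 to 21.7 FPKM in the mutant and 24.7 to 64.3 FPKM in the control libraries. Its first place did not exceed the spread of the controls, since its range there overlapped that of Cmas. Npl was the scarcest of the 10 in Vil.Cre Maf.flox, at 0.0990 to 0.120 FPKM, and the second scarcest in Maf.flox, at 1.13 to 4.62 FPKM.

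Other genes of the same metabolism were taken from 4 lists written down with earlier results of these data known. None of their 37 members tested was called in either direction by edgeR's quasi-likelihood test. An unadjusted p under 0.05 was found for 6 of the 37 and for 2248 of all 13740 genes tested, a similar share. With DESeq2 3 of them were called, where 5.54% of all genes tested were called, and without Maf.flox replicate 3 edgeR called 5, where 5.0% of all genes tested were called. Of the other sialic acid genes 7 of 9 were tested, with a median log2 fold change of -0.09. Nanp had the lowest value of this list, -1.10 (SE 0.663), and its groups overlapped. It rests on few counts, 30, 2 and 44 in Vil.Cre Maf.flox and 80, 52 and 35 in Maf.flox. Slc35a1, which carries the activated sialic acid into the Golgi, had 46.1, 39.1 and 35.7 CPM in Vil.Cre Maf.flox and 34.5, 29.4 and 31.1 CPM in Maf.flox, a log2 fold change of 0.35 (SE 0.122). Siae, which removes acetyl groups from sialic acid, had one of -0.46 (SE 0.143), and its groups overlapped. Ctsa and Glb1, whose proteins form a lysosomal complex with Neu1, had log2 fold changes of -0.09 (SE 0.116) and -0.07 (SE 0.111).

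Of 20 sialyltransferases 8 passed the filter, with a median of -0.12. St3gal4 was the most abundant of the list, at 1641 CPM in Vil.Cre Maf.flox and 1593 CPM in Maf.flox. St3gal1, which sialylates core O-glycans, averaged 28.0 CPM in Vil.Cre Maf.flox and 17.9 CPM in Maf.flox, a log2 fold change of 0.64 (SE 0.164) with no overlap. St3gal6 had a log2 fold change of -0.28 (SE 0.142). The 9 hexosamine and O-GlcNAc genes tested had a median of 0.05, with Gfpt1, which opens the hexosamine pathway, at 0.57 (SE 0.187) and Uap1l1 at -0.70 (SE 0.271), both with overlapping groups.

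The 13 lysosomal glycosidases described had a median log2 fold change of 0.11, and 4 of them lay below 0. Gusb, the lysosomal glucuronidase, had 65.9, 43.0 and 43.8 CPM in Vil.Cre Maf.flox and 26.4, 28.3 and 34.9 CPM in Maf.flox, a log2 fold change of 0.77 (SE 0.186). Its groups did not overlap, and it was not called. Fuca1, the lysosomal fucosidase, had 314, 290 and 217 CPM in Vil.Cre Maf.flox and 247, 203 and 190 CPM in Maf.flox, a log2 fold change of 0.36 (SE 0.161) with overlapping groups. Hexa, a hexosaminidase subunit, was at 0.11 (SE 0.0998).

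**Figure D3:**
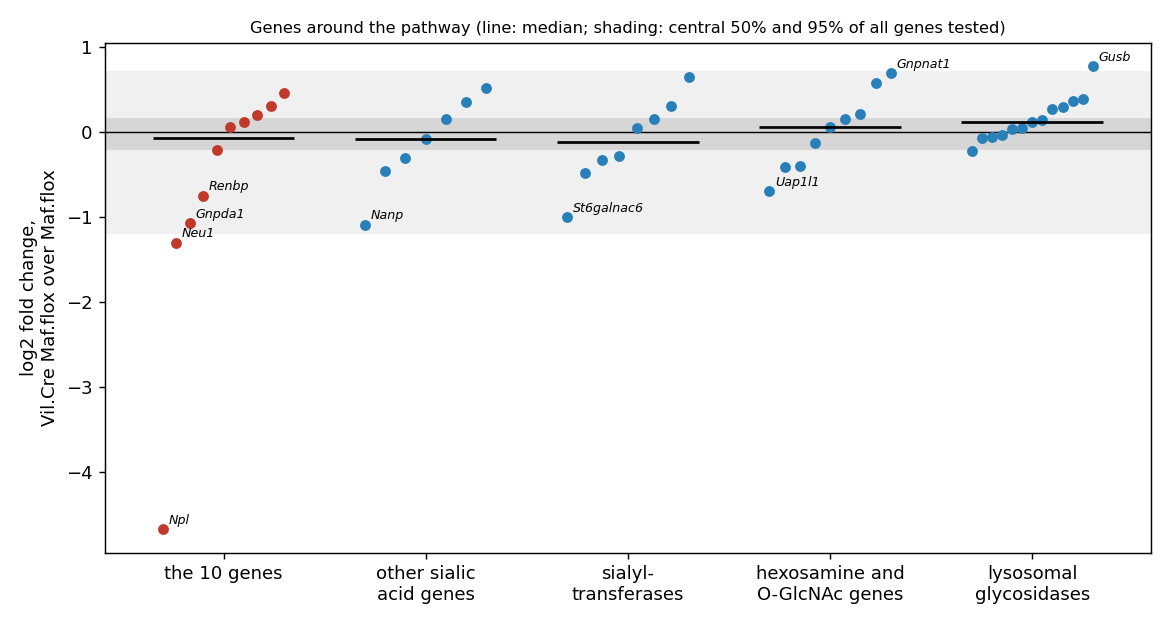
Log2 fold change, Vil.Cre Maf.flox over Maf.flox, of the 10 genes (red) and of the genes tested in 4 related lists (blue), with the list median as a line and the central 50% and 95% of all genes tested shaded. The list medians lie between -0.12 and 0.11, and no gene of the 4 lists reaches the -1.31 of Neu1 or the -4.68 of Npl.

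The genes with a pattern most like that of Npl were sought by the root mean square difference of log2 CPM over the 6 libraries, after each gene's own mean was subtracted. They were Slc7a15 (0.41), Gvin1 (0.61), Lct, the gene of lactase (0.66), Cyp2b10 (0.72) and Slc6a19, the gene of a brush border transporter of neutral amino acids (0.73). Slc7a15 had 2.23, 2.64 and 1.41 CPM in Vil.Cre Maf.flox and 70.6, 71.1 and 25.4 CPM in Maf.flox. Lct had 14.4, 14.6 and 15.2 CPM in Vil.Cre Maf.flox and 336, 628 and 314 CPM in Maf.flox. Slc7a15, Gvin1 and Lct were called over all genes, and Cyp2b10 and Slc6a19 were not. All 5 had less CPM in every mutant library than in every control, and in each of the 5 Maf.flox replicate 3 was the lowest control. Npl has both traits, and the 5 were picked for likeness to it in these same libraries, so neither is a separate finding. Gvin1 was scarce, at 0.101, 0 and 0.0856 CPM in Vil.Cre Maf.flox and 1.68, 1.82 and 0.617 CPM in Maf.flox. The nearest of the other 9 genes of the set was Neu1, at 1.495 and place 177 in this order of likeness, followed by Gnpda1 at 1.61.

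**Figure D4:**
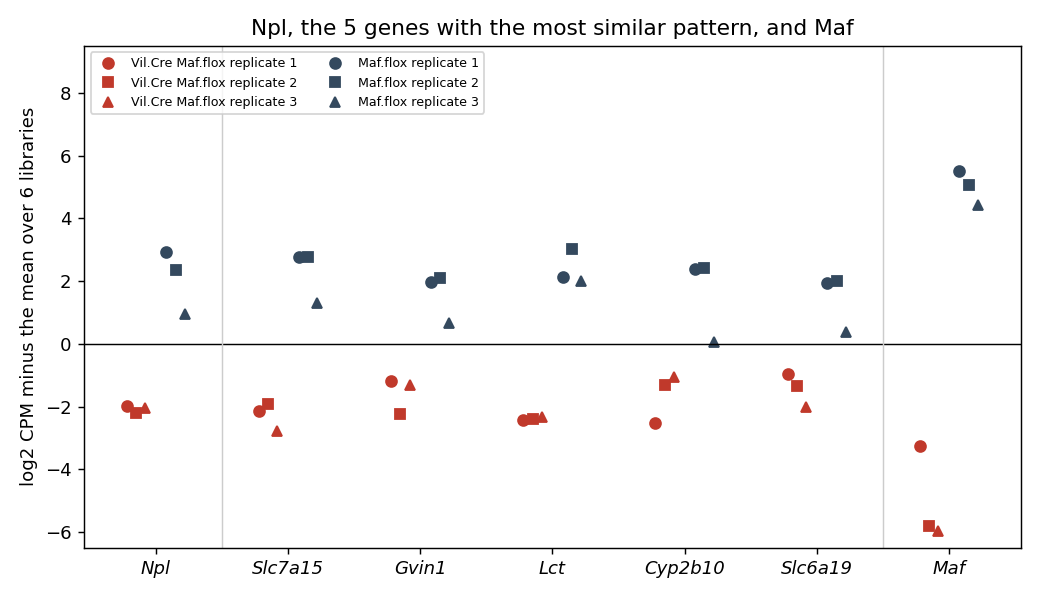
Log2 CPM of Npl, of the 5 genes with the most similar pattern and of Maf in each library, as the difference from the gene's mean over the 6 libraries. In each of these genes all 3 Vil.Cre Maf.flox libraries lie below all 3 Maf.flox libraries, and Maf.flox replicate 3 is the lowest control. The 5 genes were picked for likeness to Npl in these libraries, which favours this shared pattern.

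**Figure D5:**
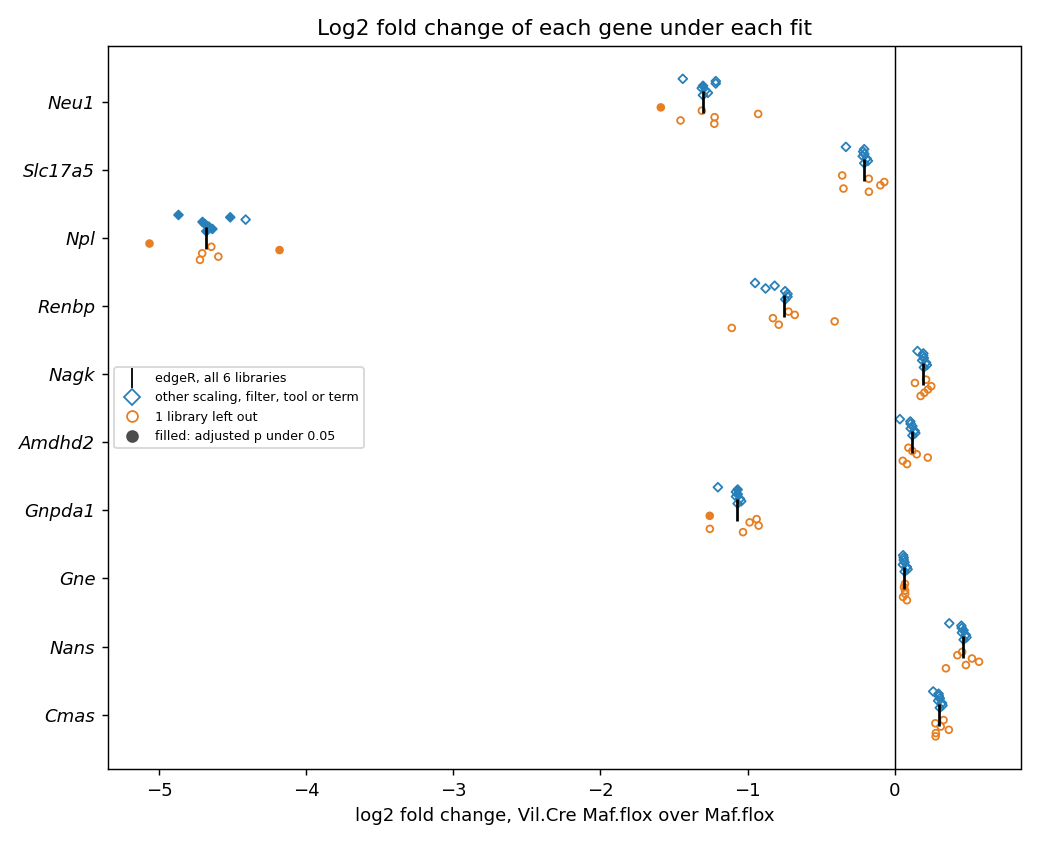
Log2 fold change of each gene in the edgeR fit of all 6 libraries (bar), in fits with another scaling, filter, tool or added term (diamonds) and with 1 library left out (circles), filled where the adjusted p was under 0.05. No value crosses 0, and the widest ranges are those of Npl (-5.06 to -4.18), Renbp (-1.11 to -0.41) and Neu1 (-1.59 to -0.93).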

How the data were processed

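The authors deposited 1 table of raw counts and FPKM values for 6 libraries. HISAT2 2.0.5, featureCounts 1.5.0-p3 and DESeq2 with GRCm38 (mm10) are named per the submitters' processing notes, and strand use in counting is not given in the sources used here. The deposited counts are whole numbers that were not normalised, and the deposited FPKM values scale them by gene length and library size; FPKM was used for levels between genes and not tested. Gene lengths come from the deposited table.

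For the tests, R 4.3.3 with edgeR 4.0.16 was used. Genes passed filterByExpr with a least count of 10, libraries were scaled by TMM, and genotype was the only term of a robust quasi-likelihood fit, adjusted by Benjamini-Hochberg over 13740 genes. CPM values are TMM-scaled, and log2 CPM used a prior count of 2. The SE is the log2 fold change divided by the square root of its F statistic in that fit, and the 95% interval uses the t distribution on the fit's degrees of freedom. In counts simulated for this comparison over 13740 genes, 71% of 2-fold and 93% of 4-fold changes were called, and 9.4% of calls were false. The simulated libraries of a group varied independently around a common mean for each gene. No outlying library such as Maf.flox replicate 3 was simulated, so these shares need not hold for the measured data. Alternatives were RLE and upper quartile scaling, no filter, a least count of 50, DESeq2 1.42.0, limma-voom (limma 3.58.1), an adjusted p of 0.1, a replicate block, a term for sex and each library left out. The 10 genes, the lists and the tests were chosen with earlier results of these data known. Beyond the 10 genes, the text names Maf, genes called and the 2 genes of smallest p of each related list, the 5 genes most like Npl and the 2 most abundant markers of each list. Ctsa, Glb1, Gnpda2, Hexa, Nanp, St3gal4 and Trim14 were added after their values were seen. Same-group libraries differed by a chi-square per gene of 35.2 to 133, so none was a copy. A gene of the glycosidase list is not reported here.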

Additional observations from a re-analysis of the deposited data

How the results depend on the processing

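Each of the 10 genes kept the sign of its log2 fold change in every alternative fit that tested it, 14 fits for each but Renbp, which a stricter filter removed. Npl was called in 9 of the 14. Its log2 fold change ran from -5.06 to -4.18 with 1 library left out, and it was not called with limma-voom (-4.41). The number of genes called over the whole table was 75, against 372 at an adjusted p of 0.1, 365 with no filter, 761 with DESeq2, 34 with limma-voom, 38 with sex as a term and 8 to 701 with 1 library left out, the highest without Maf.flox replicate 3. The set had 1 gene called lower, against 2 at an adjusted p of 0.1 (Gnpda1 added), 3 with DESeq2, 0 with limma-voom and 0 to 3 with 1 library left out. The shares of all genes tested called lower were 0.357% in the main fit and 1.69%, 3.48% and 0.153% in the 3 alternatives named first. With 1 library left out they were 0.0142% to 4.11%. With DESeq2 1 gene of the set was called higher (Nans), where 2.06% of all genes tested were called higher. Of the 37 other genes of the metabolism 0 were called, against 2 with no filter and 3 with DESeq2, where 1.58% and 5.54% of all genes tested were called. Leaving 1 library out gave 0 to 5, the 5 without Maf.flox replicate 3, where 5.0% of all genes tested were called. With a replicate block 440 genes were called, 3.2% of those tested, with 2 of the set lower (Npl and Gnpda1) and 1 of the other genes. The share of all genes tested called lower in that fit was 2.24%. The block rests on replicate numbers alone: deviations from the group means correlated at 0.0917, -0.0256 and 0.269 between libraries of the same number, which does not establish pairing. The order of the 10 genes per length was the same with TMM-scaled CPM per kilobase in place of FPKM. Both measures use the same counts and gene lengths, so the order within a library could not differ, and this is no separate check. The cause of these changes was not tested. Fits that leave 1 library out also rest on fewer libraries, and that part was not tested either. Renbp, and Npl in Vil.Cre Maf.flox, rest on few counts, 5 to 44 per library, which limits their precision.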
